A study of Mus musculus with 24 samples.

Results

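The 42 genes described here encode the machinery that copies DNA and moves a cell through its division cycle, and they were chosen by name from 15741 genes measured in mouse liver. By role they comprise 8 genes of origin licensing and the replicative helicase, 4 of helicase activation, 10 of the replication fork, 3 of nucleotide supply, 2 of chromatin copying, 2 E2F transcription factors, 3 G1 cyclins, 6 genes of S, G2 and M phase, 2 cell cycle inhibitors and 2 further targets of p53. All 42 were found. Of these, Ccnb1 has no value in the tables used here for KO Control CT15 and WT LeuD CT15, so 41 genes have a value in each of the 24 libraries, and Cdc6 is absent from 3 of the 10 tables.

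Before a cell copies its DNA, the ORC, CDC6 and CDT1 proteins load the MCM2 to MCM7 ring onto origins in G1, and CDC45 and the GINS complex turn that ring into an active helicase. Cyclin D and cyclin E kinases release E2F factors from the retinoblastoma protein, and E2F then raises transcription of licensing, nucleotide and cyclin genes, while p21 (Cdkn1a) and p27 (Cdkn1b) block those kinases. Most hepatocytes of an adult liver rest outside the cycle and can re-enter it, as after partial hepatectomy.

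Polyadenylated liver RNA came from mice lacking GCN2 in the whole body (KO) and from wild-type mice (WT). GCN2 is a kinase, encoded by Eif2ak4, that senses uncharged transfer RNA and phosphorylates eIF2. Each genotype was fed a diet without leucine (LeuD) or a control diet (Control) and killed at circadian time 15 (CT15) or 03 (CT03). The 8 groups, each of 3 mice, were KO LeuD CT15, KO LeuD CT03, KO Control CT15, KO Control CT03, WT LeuD CT15, WT LeuD CT03, WT Control CT15 and WT Control CT03. All had 2 days of adjustment to the control diet on a 12-h light-dark cycle, and 24 h after the diet switch lights went off for 8 days. Because GCN2 is missing in the whole body, effects that begin in the liver and in other organs cannot be told apart. The sources used here give no age, sex or strain of the mice. In bulk tissue, fewer cells of a type and less RNA per cell cannot be told apart.

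Libraries held 34137121 to 44884200 reads in listed genes. Eif2ak4 had 244 to 464 normalized counts (reads divided by a library size factor) in KO livers and 288 to 350 in WT livers, and reads summed over the whole gene do not check the deletion. Eif3j2, chosen after its values were seen, had 536 to 886 normalized counts in KO livers and 49.6 to 102 in WT livers, so 0 libraries lay on the wrong side. Summed hepatocyte markers (9 of 9 listed) took 143370 to 183284 RPM (reads scaled to a common library depth) in KO LeuD livers, 109196 to 135912 in KO Control, 96975 to 137237 in WT LeuD and 84151 to 118201 in WT Control. Pancreas acinar markers took 13986 RPM in KO LeuD CT03 replicate 1, 7429 in KO LeuD CT15 replicate 3, 4057 in WT LeuD CT15 replicate 1 and 9.26 to 619 in the other libraries. The part of these shifts in the results was not tested. The library kit does not mark strand by its usual protocol, and how the counting treated strand is not stated. Reads of genes that overlap on opposite strands may thus not be told apart. In the GENCODE M21 annotation of GRCm38 this touches Gins2 with Gse1 (2758 shared exonic bases), Fen1 with Gm10143 (1909), Ccnd1 with LTO1 (1100), E2f8 with Gm2788 (610), Ccne2 with Ints8 (609), Ccna2 with Exosc9 (510), Rfc5 with Wsb2 (499) and Mcm7 with Ap4m1 (321), whose values are uncertain. Cdkn1a, Lig1, Cdc45, Rfc4 and Pole share 78 to 273 bases with a neighbour.

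In the plot of all members by library, the KO LeuD columns stand out. Of the 41 members with 24 values, 30 had their highest value in a KO LeuD library: 22 at CT15 and 8 at CT03. Replicate 1 of KO LeuD CT15 alone held the highest value of 21 members and KO LeuD CT03 replicate 2 that of 8. How many of all genes have their highest or lowest value in each library was not counted, so these counts do not set the members apart. The 6 helicase genes Mcm2 to Mcm7 summed to 4986, 2169 and 3295 normalized counts in KO LeuD CT15, against 1165, 1384 and 1492 in KO Control CT15. They summed to 1441, 1442 and 1446 in WT LeuD CT15, against 2124, 2188 and 1687 in WT Control CT15. In KO LeuD CT03 the sums were 2643, 3381 and 1268, so replicate 3 of that group stood apart from its mates.

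**Figure D1:**
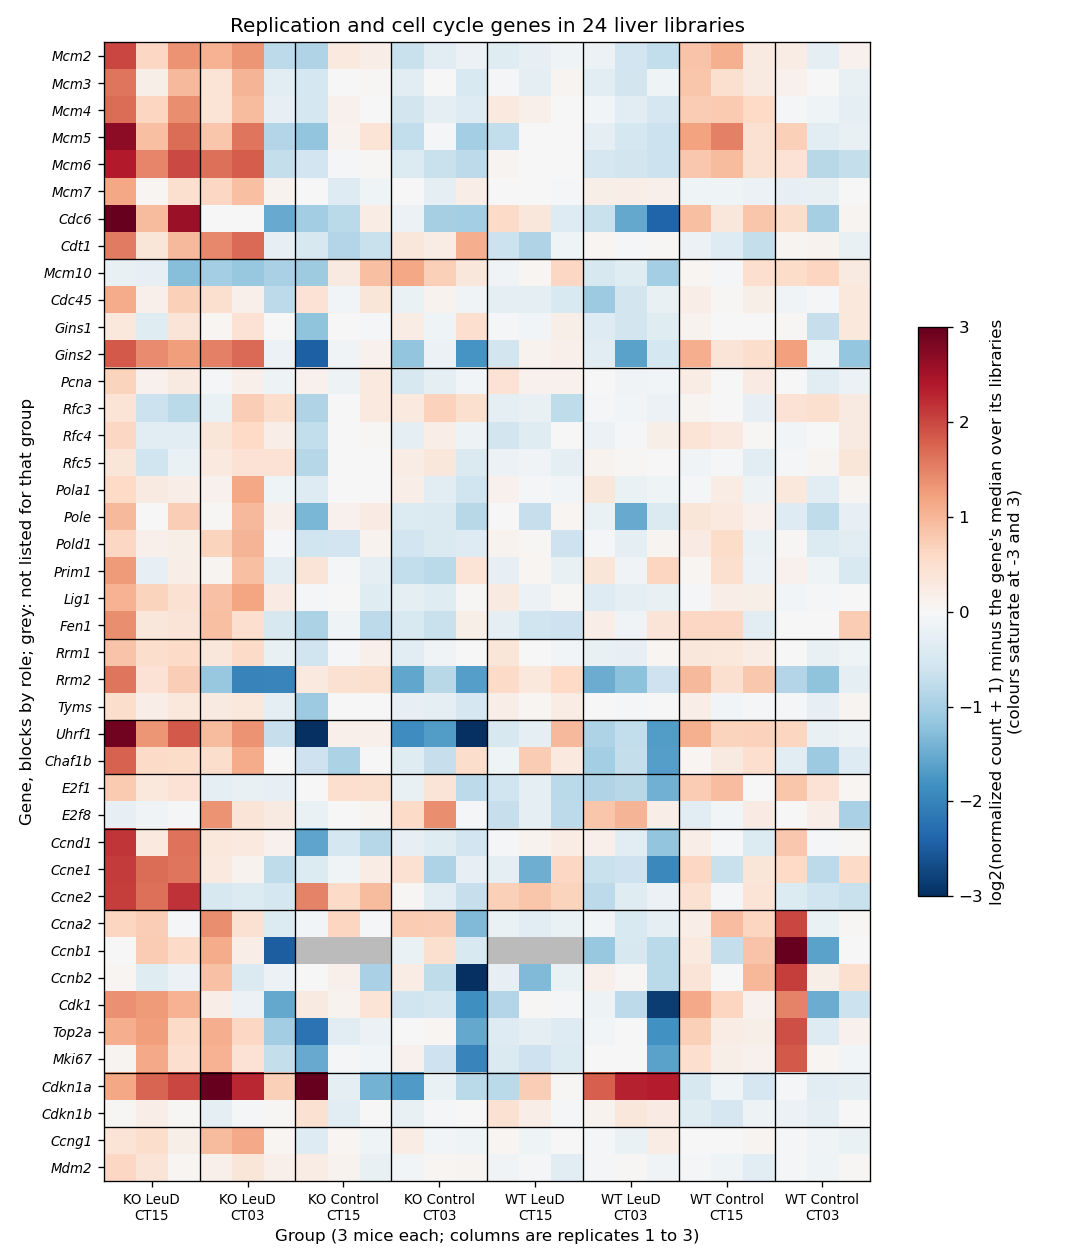
Each row is a member, grouped by role, and each column a mouse; colour gives log2(normalized count + 1) relative to the gene's median over its libraries, saturating at -3 and 3, and grey marks Ccnb1 where it has no value. Most licensing genes lie above their medians in the KO LeuD CT15 libraries and in replicates 1 and 2 of KO LeuD CT03. In WT Control CT15 Mcm2 to Mcm6 do so as well. They sum to 1541, 1601 and 1119 normalized counts there, against 1500 in KO LeuD CT15 replicate 2. Top2a and Mki67 are highest in WT Control CT03 replicate 1.

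The licensing genes are shown with their promoters because each of the 8 was higher in KO LeuD CT15 than in KO Control CT15 livers without overlap, and MCM genes are textbook E2F targets. Windows of 300 bases, from 250 before to 50 after the RefSeq start (GRCm38.p6), were held for 35 of the 42 members; Ccne2, Ccnd1, Mcm4, Pole, Gins2, Gins1 and Ccna2 were not matched. Both strands were searched for the E2F words TTTCCCGC, TTTGGCGC, TTTGCCGC and TTTCGCGC, which stand in capitals in the sequences printed here, and overlapping words run into 1 block. A gene counted if any of its windows held the word, and Cdkn1a, Fen1, Lig1, Mcm7 and Uhrf1 have more than 1 window. At least 1 word was found for 12 of the 35 members (34.3%), against 704 of 27025 genes (2.6%), and 6 of the 7 licensing genes with a window held at least 1. For these shares all genes means the 27025 with a window, whether or not they were among the 15741 measured in these livers. The CCAAT box was found for 65.7% of members and 41.1% of all genes, the cell cycle element TTTGAA for 22.9% and 20.2%, and the E-box CACGTG, a site of clock proteins, for 8.57% and 8.09%. Windows of 5 licensing genes with a word and of Mcm2, which has none, follow, each with its place in GRCm38.p6, written 5′ to 3′ on the gene's own strand. They lie at chr1:128359656-128359955, minus strand, for Mcm6; chr8:75109259-75109558, plus strand, for Mcm5; chr1:20820263-20820562, minus strand, for Mcm3; chr5:138171834-138172133, minus strand, for Mcm7; chr11:98907901-98908200, plus strand, for Cdc6; and chr6:88898731-88899030, minus strand, for Mcm2.
Mcm6: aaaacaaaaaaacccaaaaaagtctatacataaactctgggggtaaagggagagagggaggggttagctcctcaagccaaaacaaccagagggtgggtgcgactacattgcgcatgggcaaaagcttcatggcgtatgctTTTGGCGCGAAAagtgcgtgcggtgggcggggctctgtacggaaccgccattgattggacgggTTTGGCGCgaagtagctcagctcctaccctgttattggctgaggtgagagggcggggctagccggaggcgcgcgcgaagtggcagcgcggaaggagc
Mcm5: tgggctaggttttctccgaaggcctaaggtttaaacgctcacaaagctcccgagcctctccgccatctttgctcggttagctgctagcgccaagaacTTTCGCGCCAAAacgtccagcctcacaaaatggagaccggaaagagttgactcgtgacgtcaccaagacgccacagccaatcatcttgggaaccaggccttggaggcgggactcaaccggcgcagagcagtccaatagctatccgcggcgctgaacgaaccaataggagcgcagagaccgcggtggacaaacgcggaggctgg
Mcm3: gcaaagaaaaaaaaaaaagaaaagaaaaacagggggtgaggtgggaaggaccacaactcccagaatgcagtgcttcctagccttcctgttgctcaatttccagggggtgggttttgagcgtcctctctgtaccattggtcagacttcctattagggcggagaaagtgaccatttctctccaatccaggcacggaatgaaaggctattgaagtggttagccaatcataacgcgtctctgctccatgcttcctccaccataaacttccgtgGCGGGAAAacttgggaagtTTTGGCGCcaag
Mcm7: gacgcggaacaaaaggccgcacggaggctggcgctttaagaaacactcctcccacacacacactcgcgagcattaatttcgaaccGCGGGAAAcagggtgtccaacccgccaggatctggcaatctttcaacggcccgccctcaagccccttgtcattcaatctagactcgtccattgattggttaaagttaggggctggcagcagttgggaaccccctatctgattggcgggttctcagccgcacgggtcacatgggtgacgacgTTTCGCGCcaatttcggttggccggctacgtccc
Cdc6: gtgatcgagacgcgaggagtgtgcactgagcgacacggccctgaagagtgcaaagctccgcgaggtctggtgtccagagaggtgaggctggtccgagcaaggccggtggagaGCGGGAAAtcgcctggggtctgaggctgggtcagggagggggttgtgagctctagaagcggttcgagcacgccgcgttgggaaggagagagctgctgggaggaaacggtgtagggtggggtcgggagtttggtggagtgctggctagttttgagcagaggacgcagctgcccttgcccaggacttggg
Mcm2: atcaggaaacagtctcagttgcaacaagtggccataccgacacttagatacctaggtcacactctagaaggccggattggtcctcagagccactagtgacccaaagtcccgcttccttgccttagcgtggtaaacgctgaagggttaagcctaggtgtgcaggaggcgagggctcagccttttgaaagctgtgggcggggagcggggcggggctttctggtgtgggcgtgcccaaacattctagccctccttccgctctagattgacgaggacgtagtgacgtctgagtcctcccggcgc
With the start base as 1 and the base before it as -1, the Mcm6 words begin at -110, -106 and -47, the Mcm5 words at -153 and -149, the Mcm3 words at 20 and 39, the Mcm7 words at -165 and 17 and the Cdc6 word at -138. The other Mcm7 window, chr5:138171217-138171516 on the minus strand, holds no E2F word. These places are counted from RefSeq starts. In GENCODE M21 the Cdc6 gene begins at chr11:98907801 and the Mcm7 gene, on the minus strand, at chr5:138172422. The Cdc6 window and both Mcm7 windows thus lie inside the genes as annotated there. The Mcm2 window holds none of these exact letters, which says nothing about the factor. A match is a description of letters, and no binding was measured here.

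The question behind the diet and genotype comparisons was whether loss of GCN2 changes the response of the liver to a diet without leucine. Mcm6, a subunit of the helicase ring, passed the limma test of that difference at CT15. There it had 1069, 561 and 808 normalized counts in KO LeuD CT15, against 136, 199 and 207 in KO Control CT15. In WT livers it had 215, 204 and 203 in WT LeuD CT15, against 359, 395 and 279 in WT Control CT15. The LeuD mice were thus higher than Control in KO and lower in WT, with no overlap in either genotype. The diet effect was 2.14 ± 0.28 on the log2(normalized count + 1) scale in KO livers (adjusted p = 0.0575) and -0.72 ± 0.16 in WT livers (adjusted p = 0.144), neither past the 0.05 threshold on its own. The difference between these effects passed the limma test (2.85 ± 0.33, adjusted p = 0.032). By limma 1 of 41 members was called, beside 0.102% of 14725 genes. For the same difference edgeR called 1 (0.00679% of all genes), DESeq2 16 (2.02%) and 1 limma fit over 24 libraries 2 (0.55%). By limma 24 of 41 members had an unadjusted p under 0.05 against 12.1% of all genes. The difference for Mcm6 kept a size of 2.63 to 3.1 without each of the 12 libraries in turn, with adjusted p between 0.00959 and 0.134, and it missed the threshold without 8 of them: KO LeuD replicate 3, KO Control replicate 3 and each WT library. Without KO LeuD replicate 3 and WT LeuD replicate 1, the acinar-rich libraries at CT15, it was 2.86. The adjusted p was 0.192 in that limma fit, which had fewer mice.

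For genotype on the LeuD diet at CT15, 5 of 41 members were called, all higher in KO, by limma, beside 1.84% of 14805 genes. There edgeR called 3 (1.51% of all genes), DESeq2 19 (7.05%) and 1 limma fit over 24 libraries 9 (3.82%). Mcm6 rose with the lowest adjusted p of the members (1.92 ± 0.22, adjusted p = 0.012). Mcm2, another ring subunit, had 654, 252 and 414 normalized counts in KO LeuD CT15, against 127, 137 and 149 in WT LeuD CT15 (1.57 ± 0.31, adjusted p = 0.0454). Every KO value of Mcm2 lay above every WT value. Gins2, a subunit of the GINS complex, had 88.6, 65.7 and 58.6 in KO LeuD CT15, against 16.2, 26 and 27 in WT LeuD CT15 (1.59 ± 0.31, adjusted p = 0.0447). The cyclin E2 gene Ccne2 (1.22 ± 0.20, adjusted p = 0.0299) and Top2a, the topoisomerase that untangles copied DNA (1.33 ± 0.26, adjusted p = 0.044), were the others. All 3 KO mice lay above all 3 WT mice for 28 members and below them for 1, Mcm10, where 12.8% and 11.4% of all genes separated in these directions. The median change of the members was 0.70, against 0.01 over all genes tested, and 39 of 41 were positive. The count of 5 became 1 without KO replicate 1 or 3 or WT replicate 1, 9 without KO replicate 2 and 2 without WT replicate 3. It was 0 without WT replicate 2. It was also 0 without both acinar-rich libraries of these groups (KO replicate 3 and WT replicate 1), a fit with fewer mice per group. Of all genes, 27 to 362 were called over the 6 fits that left out 1 library. Mcm6 kept its call in 5 of the 6 leave-one-out fits. Mcm2 and Ccne2 kept theirs in 1, the fit without KO replicate 2, and Gins2 and Top2a in 0. Cdc45, the helicase cofactor, had 109.8, 56.5 and 82.7 in KO LeuD CT15, against 41.5, 41.6 and 36.5 in WT LeuD CT15 (0.99 ± 0.29, adjusted p = 0.119), without overlap. Gins1, another GINS subunit, had an effect of 0.09 ± 0.23, adjusted p = 0.884.

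**Figure D2:**
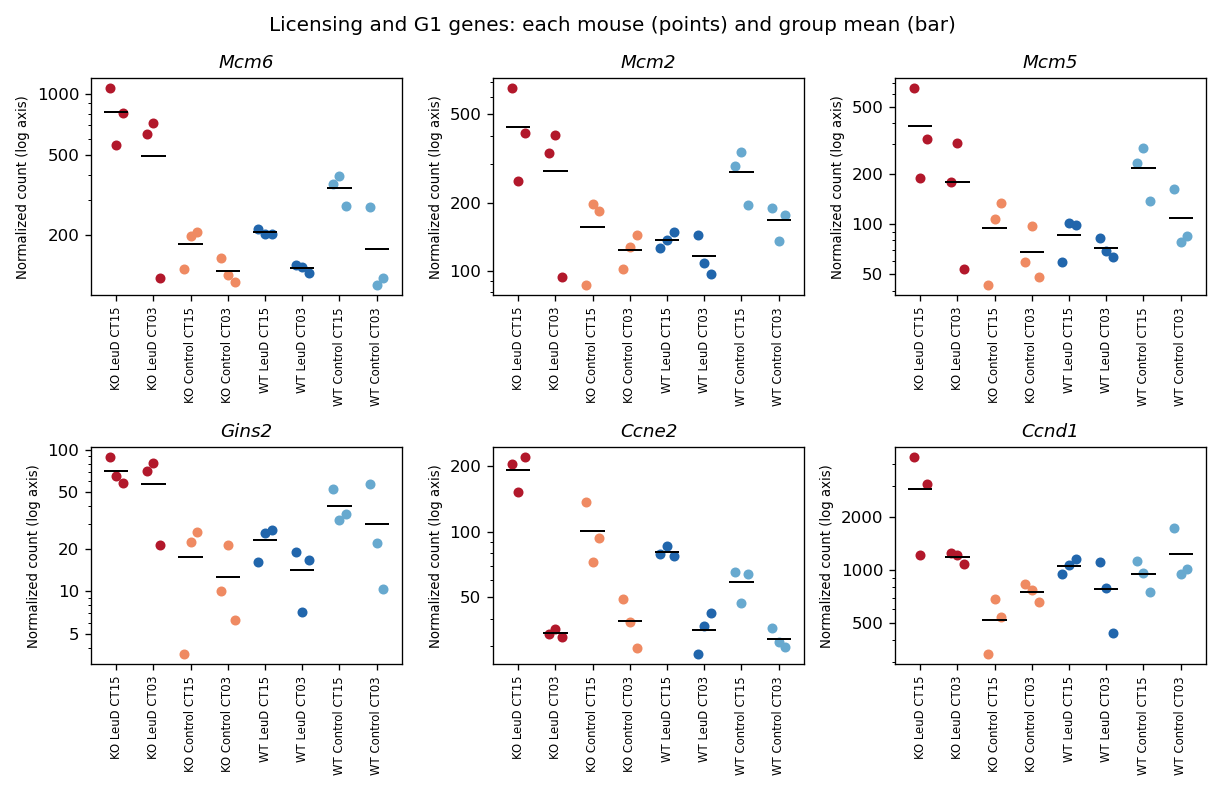
Points are normalized counts of each mouse on a log axis and bars are group means (n = 3), for the helicase genes Mcm6, Mcm2 and Mcm5, the GINS gene Gins2 and the cyclin genes Ccne2 and Ccnd1, with KO groups on the left and WT groups on the right. For Mcm6 the KO LeuD CT15 mice, at 561 to 1069, lie above all mice of the Control and WT groups, and KO LeuD CT03 replicate 3, at 124, lies apart from its mates at 638 and 720.

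The licensing genes had higher values on LeuD than on Control in KO livers at CT15, but no member passed limma fitted on these 6 libraries. By that fit 0 of 41 members were called, beside 0.0202% of 14834 genes; 22 had an unadjusted p under 0.05, all higher on LeuD, against 16.1% of all genes in either direction, edgeR called 0, DESeq2 called 14 (4.71% of all genes) and 1 limma fit over 24 libraries 17 (8.22%). Without KO Control replicate 1 there were 3 calls, Mcm6, Ccne1 and Cdkn1a. Over the 6 leave-one-out fits of this comparison limma called 0 to 212 of all genes. The 3 LeuD mice lay above the 3 Control mice for 24 members and below them for 0, against 12.1% and 10.8% of all genes. These included each of the 8 licensing genes. Mcm5, a ring subunit, had 649.5, 188 and 322 normalized counts in KO LeuD CT15, against 43, 107 and 133 in KO Control CT15 (1.98 ± 0.54, adjusted p = 0.163). Replicate 1 was the highest of the LeuD mice, and the Control replicate 1 the lowest of the Control mice. Cdc6, the loader that brings the ring to origins, differed by 2.84 ± 0.65 and its partner Cdt1 by 1.63 ± 0.32 (adjusted p = 0.121 and 0.0951). The median change of the members was 0.81, against 0.00 over all genes tested, and 38 of 41 were positive.

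In WT livers at CT15 the LeuD values of most licensing genes were below the Control values. By limma 0 of 41 members were called, beside 0.166% of 15073 genes; 14 had an unadjusted p under 0.05 (13 of them lower on LeuD) against 13% of all genes, edgeR called 0 and DESeq2 called 4 (3.47% of all genes). Without WT Control replicate 3 limma called 2, Mcm2 and E2f1. Over the 6 leave-one-out fits of this comparison it called 0 to 130 of all genes. All 3 LeuD mice lay below all 3 Control mice for 15 members and above them for 3 (Mcm7, Ccne2 and Cdkn1b), where 9.57% and 9.35% of all genes separated. Mcm5 had 59.7, 101 and 98.3 normalized counts in WT LeuD CT15, against 233, 284 and 138 in WT Control CT15 (-1.30 ± 0.31, adjusted p = 0.161). The groups did not overlap. Mcm2 had a diet effect of -0.97 ± 0.21, adjusted p = 0.144, and Mcm7, the ring subunit with the smallest diet effect in both genotypes, an effect of 0.11 ± 0.10, adjusted p = 0.664. The median over the members was -0.37, against -0.01 over all genes, and 31 of 41 were negative. Erythroid markers (7 of 12 listed) summed to 142, 179 and 85.9 RPM in WT LeuD CT15, against 216, 340 and 290 in WT Control CT15, without overlap; their part in the result was not tested.

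**Figure D3:**
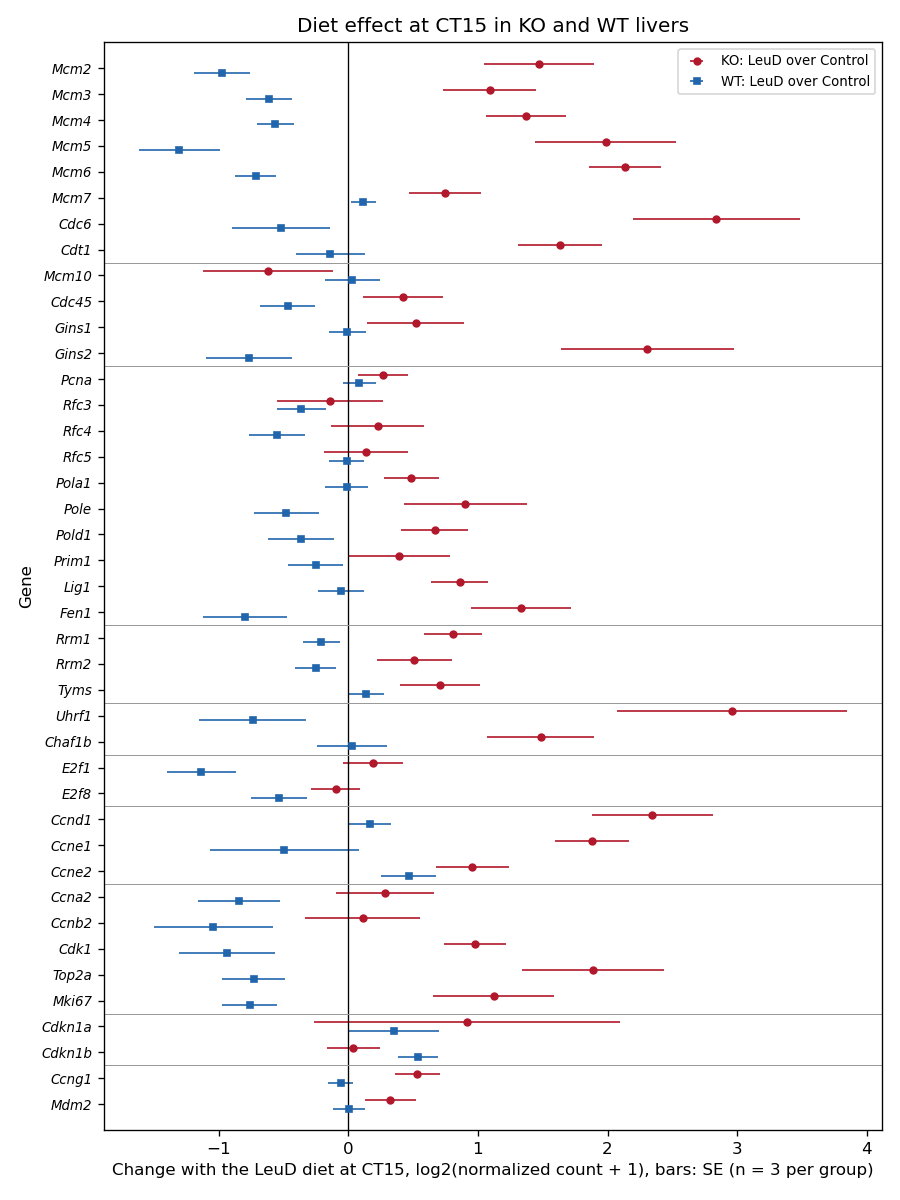
Each point is the change of a member with the LeuD diet at CT15 on the log2(normalized count + 1) scale, with its SE, in KO livers (red circles, above) and in WT livers (blue squares, below), with members ordered by role. Licensing genes sit right of 0 in KO and, apart from Mcm7, left of 0 in WT, while Mcm10 and the inhibitor Cdkn1b do not follow this split.

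On the Control diet at CT15 the genotype effect (KO over WT) was negative for each of the 8 licensing genes, with a median of -0.86, and 5 of them did not overlap. In KO Control CT15 livers Mcm6 had a genotype effect of -0.94 ± 0.22 and Mcm5 an effect of -1.28 ± 0.46 (adjusted p = 0.791 for both). All 3 KO mice lay below all 3 WT mice for 12 members and above them for 1, Ccne2, against 6.72% and 6.61% of all genes. By limma 0 of 41 members were called, beside 0.0798% of 15031 genes; 10 had an unadjusted p under 0.05 against 5.54% of all genes, and edgeR and DESeq2 called 0 each. KO Control CT15 replicate 1 held the lowest value of the 24 libraries for 13 members, a count not made over all genes. At CT03 on the Control diet 0 of 42 members were called, beside 0.0136% of 14674 genes, 3 had an unadjusted p under 0.05 against 8.16% of all genes, and edgeR and DESeq2 called 0.

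At CT03 the 3 KO LeuD mice did not lie together. Mcm6 had 638, 719.8 and 124 normalized counts in KO LeuD CT03, against 154, 127 and 118 in KO Control CT03 and 143, 139 and 129.7 in WT LeuD CT03. Mcm5 had 179.6, 306 and 54, against 59.1, 97.4 and 48.5 in KO Control CT03 and 82.3, 68.9 and 63.5 in WT LeuD CT03. Replicates 1 and 2 were high and replicate 3 lay within the range of the other groups. Summed acinar markers were 13986 RPM in replicate 1, 45.6 in replicate 2 and 57.4 in replicate 3. Erythroid markers summed to 101, 87.1 and 131 RPM in KO LeuD CT03, against 343, 385 and 280 in KO Control CT03, and their part in the result was not tested. By limma 0 of 41 members were called for diet, beside 0% of 14888 genes; 12 had an unadjusted p under 0.05 against 14.5% of all genes, edgeR called 0, DESeq2 called 8 (3.49% of all genes) and 1 limma fit over 24 libraries 6 (4.22%). For genotype on LeuD 0 of 42 were called, beside 0.0474% of 14755 genes; 13 had an unadjusted p under 0.05 against 13.6% of all genes, edgeR called 0, DESeq2 called 4 (3.22%) and 1 limma fit over 24 libraries 1 (0.827%). Without KO LeuD CT03 replicate 3 the counts were 12 for diet and 14 for genotype, with Mcm2, Mcm4, Mcm5, Mcm6, Gins2, Pold1, Lig1, Uhrf1 and Ccng1 in both, and 10 for the difference of diet effects between genotypes. With all 12 libraries that difference was called for 0 of 42 members by limma, beside 0% of 14649 genes; 16 had an unadjusted p under 0.05 against 13.1% of all genes, edgeR called 0 and DESeq2 called 2 (1.24%). Over all genes, 1230, 1950 and 1050 were called in these comparisons without that library.

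Mcm10, which helps start the loaded helicase, was lower on LeuD at CT03. It had 1239.7, 1329 and 849.9 normalized counts in WT LeuD CT03, against 2524, 2712 and 2079.9 in WT Control CT03, and fell by 1.11 ± 0.18 (adjusted p = 0.0228). In KO livers at CT03 it had 855, 778 and 877 on LeuD, against 3844, 2834 and 2162 on Control (-1.78 ± 0.21, adjusted p = 0.171). Groups did not overlap in either genotype. At CT15 the diet effect was 0.03 ± 0.21, adjusted p = 0.969 in WT livers and -0.62 ± 0.50, adjusted p = 0.586 in KO livers. Its level per kilobase of exons, 317 in WT Control CT03, was above that of each of Mcm2 to Mcm7 there (24.2 to 130 per kilobase). The WT call at CT03 was lost without WT Control replicate 2 or 3. In the same comparison E2f1, the activator of S-phase genes, fell to 67.5, 71 and 46 normalized counts in WT LeuD CT03, against 228, 171 and 132 in WT Control CT03 (-1.50 ± 0.26, adjusted p = 0.0295). WT LeuD mice were lower without overlap, but the call for E2f1 was kept in 1 of the 6 leave-one-out fits, that without WT Control replicate 1. Cdkn1a also passed, so limma called 3 of 41 members, beside 2.23% of 14729 genes; DESeq2 called 4 (6.52%) and 1 limma fit over 24 libraries 1 (0.163%). Erythroid markers summed to 125, 153 and 128 RPM in WT LeuD CT03, against 233, 464 and 316 in WT Control CT03, without overlap, and Alas2 of that list was called lower; their part in the result was not tested. The count by limma was 1 without WT Control replicate 2 or 3.

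The fork genes had smaller diet effects. In KO livers at CT15 their diet effects ran from -0.14 (Rfc3, a clamp loader subunit) to 1.33 (Fen1, the flap nuclease). Reads of Fen1 may not be told from those of Gm10143. The median was 0.44 over the 10 fork genes, against 1.55 over the 8 licensing genes. By limma 0 of the 10 were called there or for genotype on LeuD. In each, 3 had an unadjusted p under 0.05, against 16.1% of all genes for diet and 18.4% for genotype. In both edgeR called 0, and DESeq2 called Lig1 for diet and Fen1 for genotype. For genotype Fen1 again had the largest effect of the 10 (adjusted p = 0.11). Lig1, the ligase that joins Okazaki fragments, had 263, 204 and 177 normalized counts in KO LeuD CT15, against 122, 129.7 and 99.5 in KO Control CT15 (0.86 ± 0.22, adjusted p = 0.151). LeuD mice were higher without overlap. Pcna, the sliding clamp and the most abundant fork gene per kilobase, had 2560.4, 1761 and 1949 in KO LeuD CT15, against 1767, 1448 and 1968 in KO Control CT15 (0.27 ± 0.19, adjusted p = 0.533), and these ranges overlapped. The clamp loader subunits Rfc4 and Rfc5 had diet effects of 0.23 ± 0.36, adjusted p = 0.797 and of 0.14 ± 0.32, adjusted p = 0.87, with overlap. Pola1, of the polymerase that extends primers, and Pold1, of the lagging-strand polymerase, separated by diet (0.49 ± 0.21, adjusted p = 0.313 and 0.67 ± 0.26, adjusted p = 0.266). Pole, of the leading-strand polymerase, and Prim1, the primase, overlapped (0.90 ± 0.48, adjusted p = 0.397 and 0.39 ± 0.39, adjusted p = 0.668). Of the nucleotide genes, Rrm1, the large subunit of ribonucleotide reductase, had 854, 671 and 693 in KO LeuD CT15, against 310.1, 458 and 521 in KO Control CT15 (0.81 ± 0.22, adjusted p = 0.168). Tyms, which makes thymidylate, had 319, 255 and 275 in KO LeuD CT15, against 104, 221 and 221 in KO Control CT15 (0.71 ± 0.31, adjusted p = 0.319). Neither Rrm1 nor Tyms overlapped between diets. Among chromatin genes Uhrf1, which guides DNA methylation to new strands, had 176, 59.2 and 85 in KO LeuD CT15, against 1.79, 25.5 and 25.4 in KO Control CT15 (2.96 ± 0.89, adjusted p = 0.183). The ranges did not overlap.

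Of the G1 cyclins Ccnd1, the cyclin D1 gene that starts the G1 program, had 4373, 1225 and 3097 normalized counts in KO LeuD CT15, against 333, 689 and 545 in KO Control CT15 (2.35 ± 0.47, adjusted p = 0.0967). In WT livers it had 948, 1068 and 1155 in WT LeuD CT15, against 1135, 966 and 748 in WT Control CT15 (0.17 ± 0.16, adjusted p = 0.704). KO mice separated by diet and WT mice overlapped, and the test of the difference gave 2.18 ± 0.56, adjusted p = 0.146. Ccne1, for cyclin E1, had 120.5, 89.8 and 86.2 in KO LeuD CT15, against 20.6, 25.5 and 32.5 in KO Control CT15 (1.88 ± 0.29, adjusted p = 0.0641). Its LeuD and Control ranges did not overlap. E2f1 had 221, 157 and 171 in KO LeuD CT15, against 125, 181 and 177 in KO Control CT15 (0.19 ± 0.23, adjusted p = 0.733). It had 83, 103 and 72.2 in WT LeuD CT15, against 214, 242 and 129 in WT Control CT15 (-1.13 ± 0.26, adjusted p = 0.155). The WT mice separated by diet and the KO mice did not.

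Among genes of S, G2 and M phase, Mki67, the proliferation marker Ki-67, had 65, 135 and 87.3 normalized counts in KO LeuD CT15 and 20.6, 59.6 and 57.9 in KO Control CT15, with 44.6, 39.6 and 45.2 in WT LeuD CT15 and 86.5, 68.9 and 67.1 in WT Control CT15. Top2a had 96.8, 109 and 67.8, against 8.96, 35.1 and 39.6 in KO Control CT15, 34.4, 36.4 and 33.9 in WT LeuD CT15 and 74.3, 52.9 and 51 in WT Control CT15. In both genes the KO LeuD mice were above the KO Control and WT LeuD mice without overlap. Cdk1, the mitotic kinase, had 86.2, 80.5 and 69 in KO LeuD CT15, against 17.2, 33.3 and 32.2 in WT LeuD CT15 (1.53 ± 0.31, adjusted p = 0.0529). The mitotic cyclin genes Ccna2 (which also acts in S phase) and Ccnb2 had genotype effects on LeuD at CT15 of 0.70 ± 0.34, adjusted p = 0.321 and of 0.42 ± 0.45, adjusted p = 0.663. Ccnb1, for cyclin B1, had 10.6, 18.5 and 16.1 in KO LeuD CT15, 23.9, 12.2 and 1.06 in KO LeuD CT03, 8.92, 15 and 7.37 in KO Control CT03, 4.22, 7.2 and 5.52 in WT LeuD CT03, 13, 5.99 and 19.8 in WT Control CT15 and 136, 2.76 and 10.3 in WT Control CT03. Its highest value was that of WT Control CT03 replicate 1. WT Control CT03 had 221, 63.5 and 57.3 for Mki67 and 174, 34.1 and 49.2 for Top2a. Replicate 1 of that group was the highest of all libraries for 5 of the 41 members with 24 values (Ccna2, Ccnb2, Cdk1, Top2a and Mki67), with 647 normalized counts summed over these 5, against 46.3 to 372 in the others. That mouse also had the highest summed Kupffer markers, 1043 RPM against 485 and 452 in its mates, and lymphocyte markers, 21.6 RPM against 12.3 and 14.4; their part in the result was not tested. In KO LeuD CT15 the lymphocyte sum was 2.49 to 5.0 RPM, against 6.26 to 6.89 in KO Control CT15.

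For time of day, Rrm2, the inducible subunit of ribonucleotide reductase, was higher at CT15 than at CT03 in every group, and past the threshold in 3 of the 4. In WT Control it had 659.6, 468 and 586 normalized counts at CT15, against 181, 145 and 274 at CT03 (1.55 ± 0.24, adjusted p = 0.0344). In WT LeuD it had 501, 417 and 511 at CT15, against 119, 142 and 219 at CT03 (1.61 ± 0.22, adjusted p = 0.00393). In KO Control it had 409.6, 458 and 471 at CT15, against 113, 188 and 106 at CT03 (1.76 ± 0.24, adjusted p = 0.0667). Within each pair the CT15 mice lay above the CT03 mice. In KO LeuD the values were 1020.4, 451 and 555 at CT15, against 153, 82.1 and 84.7 at CT03. The WT LeuD call held without each library in turn, the WT Control call was kept in 1 of 6 such fits (without CT03 replicate 3), and the KO LeuD call was lost without CT15 replicate 1, 2 or 3 or CT03 replicate 2. No interaction of time with diet or genotype passed for Rrm2 (adjusted p between 0.526 and 0.993).

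Ccne2 was higher at CT15 in the 4 genotype and diet groups as well. It had 205, 152 and 219.5 normalized counts in KO LeuD CT15, against 34.1, 35.8 and 32.8 in KO LeuD CT03. It had 136, 72.3 and 93.4 in KO Control CT15, against 49.1, 38.5 and 29.5 in KO Control CT03 (1.33 ± 0.32, adjusted p = 0.203). The WT LeuD mice had 79, 86.4 and 77.4 at CT15, against 27.4, 37 and 42.3 at CT03 (1.18 ± 0.23, adjusted p = 0.0164). The WT Control mice had 65.7, 46.9 and 64.3 at CT15, against 36.1, 31.3 and 29.8 at CT03 (0.83 ± 0.25, adjusted p = 0.155). At CT03 the 12 mice of the 4 groups overlapped, from 27.4 to 49.1, and at CT15 the 3 KO LeuD mice were the highest. The difference of its time effect between genotypes on LeuD was 1.26 ± 0.31, adjusted p = 0.362, and DESeq2 called it. The WT LeuD time call was lost without CT03 replicate 2 or CT15 replicate 2. Over the 4 interactions with time, limma called 0 of 41 members in each, beside 0.00679% of genes for diet in WT, 0% for diet in KO, 0.0271% for genotype on Control and 0.0205% for genotype on LeuD. Members with an unadjusted p under 0.05 numbered 3, 4, 3 and 2 in that order, against 6.59%, 6.4%, 4.99% and 9.32% of all genes. There edgeR called 0 in each, and DESeq2 called Cdkn1a for diet in WT (0.475% of all genes) and Ccne2 for genotype on LeuD (0.623%); without WT LeuD CT15 replicate 2 limma called 1 for diet in WT. Without both acinar-rich KO LeuD libraries the KO LeuD time effect was 2.33 (adjusted p = 0.155).

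**Figure D4:**
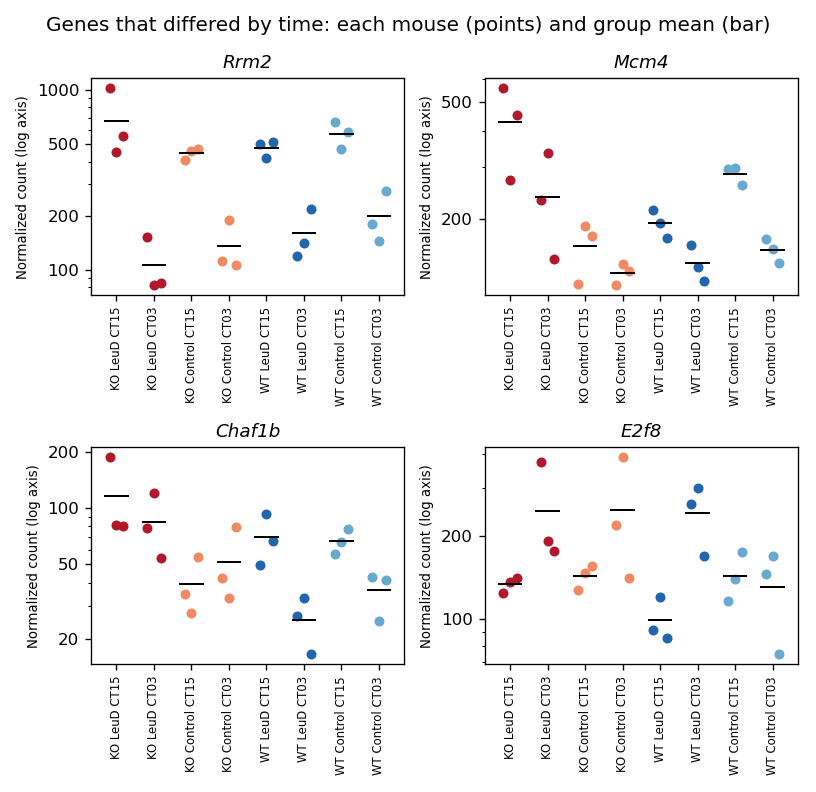
Normalized counts of each mouse (points, log axis) and group means (bars, n = 3) for Rrm2, the helicase gene Mcm4, the chromatin assembly gene Chaf1b and the repressor E2f8, with CT15 left of CT03 within each genotype and diet. Rrm2 at CT15 lies between 410 and 1020 and at CT03 between 82.1 and 274, with no overlap.

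Other members were called for time in WT livers. Mcm4, a ring subunit, had 296, 298 and 261 normalized counts in WT Control CT15, against 169.8, 157 and 141 in WT Control CT03 (0.86 ± 0.14, adjusted p = 0.0377). With Rrm2 it made 2 of 42 members called by limma there, beside 1.44% of 14967 genes, while DESeq2 called 4 (6.05%) and 1 limma fit over 24 libraries 1 (1.06%). By limma the count was 0 without CT03 replicate 2 or any 1 of the CT15 libraries, and 1 without CT03 replicate 3. In WT LeuD livers DESeq2 called 7 of 41 members, beside 13.7% of all genes, and limma 6, beside 9.58% of 14825 genes: Mcm6 (0.59 ± 0.13, adjusted p = 0.0277), Rrm2, Ccne2 and Chaf1b were higher at CT15, and E2f8 and Cdkn1a lower. Chaf1b, a subunit of the histone loader CAF-1, had 49.6, 92.7 and 67 at CT15, against 26.4, 32.9 and 16.6 at CT03 (1.43 ± 0.34, adjusted p = 0.0337). E2f8, an atypical E2F that represses, had 91.1, 121 and 85.2 at CT15, against 262, 300.4 and 170.2 at CT03 (-1.27 ± 0.24, adjusted p = 0.0145). These groups did not overlap. The call for Mcm6 was lost without any 1 library, that for Chaf1b was kept without CT15 replicate 1 alone, and that for E2f8 was lost without CT03 replicate 1 or 2. In KO LeuD limma called 2 of 42, Rrm2 and Ccne2, beside 0.831% of 14914 genes, and 0 when both acinar-rich libraries were left out. There DESeq2 called 6 (5.67%) and 1 limma fit over 24 libraries 5 (7.89%). In KO Control 0 of 40 were called by limma, beside 0.0407% of 14745 genes; 4 had an unadjusted p under 0.05 against 12.4% of all genes, edgeR called 0, DESeq2 called 3 (2.42%) and 1 limma fit over 24 libraries 2 (3.92%).

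Cdkn1a, the gene of the inhibitor p21, had 1139, 1611 and 1673 normalized counts in WT LeuD CT03, against 319, 262 and 265 in WT Control CT03 (adjusted p = 0.000939). It had 184, 541 and 333 in WT LeuD CT15, against 234, 297 and 229 in WT Control CT15 (0.35 ± 0.35, adjusted p = 0.71). The WT groups separated by diet at CT03 and overlapped at CT15. In WT LeuD it fell at CT15 by 2.17 ± 0.34 (adjusted p = 0.00714), without overlap between the times, and that call held without each library but not in 1 fit over 24 libraries, as for the diet call at CT03. In KO livers mice of a group varied widely. Cdkn1a had 732, 1088 and 1315 in KO LeuD CT15, 4102, 1561 and 539 in KO LeuD CT03, 4755, 269 and 121 in KO Control CT15 and 99.2, 284 and 186 in KO Control CT03. The highest value of the 24, 4755, came from KO Control CT15 replicate 1, whose mates had 269 and 121. The diet effect in KO livers was 3.11 ± 0.71, adjusted p = 0.226 at CT03 and 0.92 ± 1.18, adjusted p = 0.745 at CT15, and the difference of diet effects between genotypes at CT03 was 0.75 ± 0.81, adjusted p = 0.693. The mouse with 4755 was also the one with the lowest value for 13 members, a count not made over all genes. KO LeuD CT03 replicate 1, with 4102, had high Mcm6. Whether these values are linked was not tested.

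Cdkn1b, for p27, had 775 to 1518 normalized counts over the 24 libraries and was called in 0 of 18 comparisons by limma, with an unadjusted p under 0.05 in 4, and in 0 by edgeR and DESeq2. In WT livers it had 1517, 1259 and 1064 in WT LeuD CT15, against 860.2, 775 and 996 in WT Control CT15 (0.54 ± 0.15, adjusted p = 0.219), without overlap. The p53 targets Ccng1 and Mdm2 (a ligase that degrades p53) had diet effects in KO livers at CT15 of 0.53 ± 0.17, adjusted p = 0.208 and of 0.32 ± 0.20, adjusted p = 0.455. Ccng1 had 2427, 2778 and 1310.0 in KO LeuD CT03, with replicate 3 again lowest of the group.

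**Figure D5:**
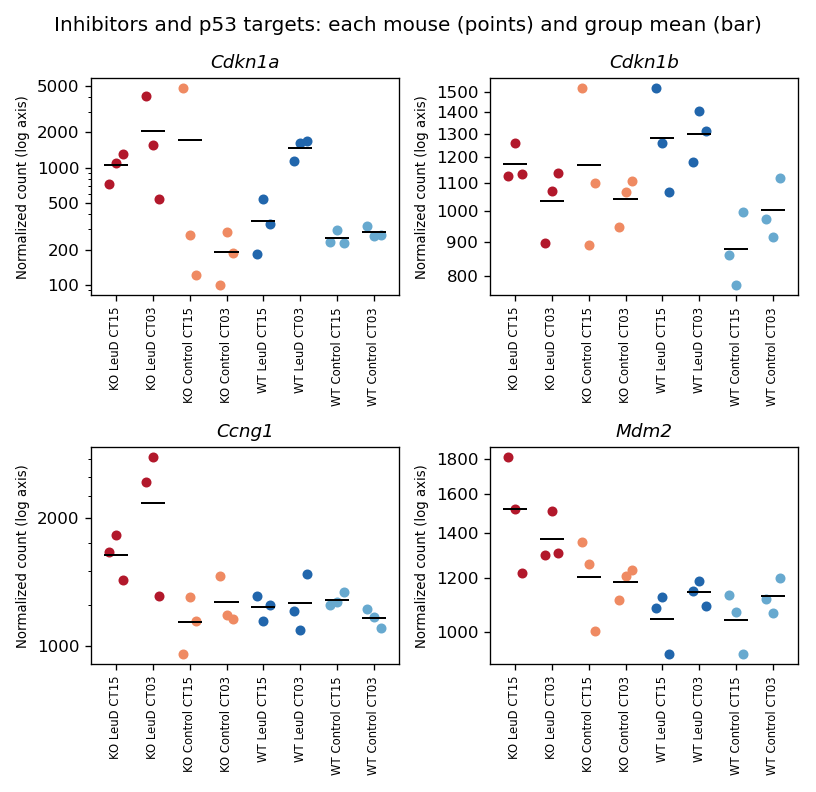
Normalized counts of each mouse (points, log axis) and group means (bars, n = 3) for the inhibitor genes Cdkn1a and Cdkn1b and the p53 targets Ccng1 and Mdm2. Cdkn1a spans 99.2 to 4755, with WT LeuD CT03 at 1139 to 1673 above WT Control CT03 at 262 to 319, and Cdkn1b spans 775 to 1518.

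Beside the members, other genes of the pathway were counted. The lists held 36 further replication genes, 36 further cell cycle regulators, 33 mitosis genes and 25 further p53 targets. In the KO diet comparison at CT15, 0 of any list passed by limma, beside 0.0202% of all genes. These lists had 11, 9, 9 and 8 genes at an unadjusted p under 0.05, against 16.1% of all genes. Their median effects there were 0.31 (34 listed), 0.13 (34), 0.79 (28) and 0.19 (25), against 0.81 for the 41 members and 0.00 for all genes. For genotype on LeuD at CT15 the p53 list gave 2 of 25 higher and 1 lower by limma, beside 1.2% and 0.642% of all genes. The others gave 0 of 35, 0 of 35 and 0 of 25. They had 9, 12 and 8 at an unadjusted p under 0.05, against 18.4% of all genes. Eda2r, a receptor induced by p53, rose to 65.9 ± 26.9 in KO livers, against 12.8 ± 2.21 in WT livers (SD, n = 3; 2.22 ± 0.36, adjusted p = 0.027), and Btg2, an antiproliferative gene, to 1586 ± 494, against 449 ± 150 (1.83 ± 0.28, adjusted p = 0.0251). Gadd45a, a damage response gene, fell to 508 ± 155 in KO livers, against 1408 ± 432 in WT livers (-1.47 ± 0.29, adjusted p = 0.0454). Among regulators Wee1, the kinase that holds back entry into mitosis, rose at CT15 in WT Control (953 ± 78.1, against 163 ± 53.4 at CT03; adjusted p = 0.00739), WT LeuD (1064 ± 83.9, against 76.2 ± 13.5; adjusted p = 1.66e-05) and KO LeuD (1271 ± 421, against 156 ± 19.8; adjusted p = 0.00378). In KO Control Wee1 had 663 ± 415 at CT15, against 208 ± 132 at CT03, and was not called by limma (1.55 ± 0.69, adjusted p = 0.422). Tk1, the salvage kinase for thymidine, rose in WT LeuD (1787 ± 216 at CT15, against 657 ± 153 at CT03). E2f2, an activator E2F, fell with LeuD in WT livers at CT03 (33.5 ± 2.52 on LeuD, against 124 ± 8.27 on Control). Other genes of these lists that passed were Ect2, Plk3 and Gadd45a, higher at CT15 in WT LeuD, Fbxw7 and Ccng2, lower there, Ect2, higher at CT15 in KO LeuD, and, with LeuD in WT livers at CT03, Ccng2 (higher) and Plk2 (lower).

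The authors' deposited table for diet in KO livers at CT15 lists 14 members higher and 0 lower at an adjusted p under 0.05, beside 4.71% of all its genes. Those 14 were Mcm2, Mcm3, Mcm4, Mcm5, Mcm6, Cdc6, Cdt1, Gins2, Lig1, Uhrf1, Chaf1b, Ccnd1, Ccne1 and Top2a. The authors' deposited table for diet in WT livers at CT15 lists 0 higher and 4 lower (Mcm2, Mcm5, Mcm6 and E2f1), beside 3.47%. Of members with a limma change over 0.2 on the log2 scale, 34 of 35 in KO and 28 of 28 in WT had the same sign as in the authors' deposited table. Both rest on the same reads, so this agreement is not independent support.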

How the data were processed

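RNA from 24 livers was read as 10 tables, each comparing 2 of the 8 groups. The submitters' processing notes name Trimmomatic 0.36, STAR 2.5.2b, featureCounts, Subread 1.5.2, DESeq2, DESeq and the build GRCm39; which settings or annotation were used is not given in the sources used here. The authors' own log2 fold changes, p-values and adjusted p-values stand beside the library values, per the file headers. As deposited, a library value is a signal: a gene's count over a size factor set per table. Whole reads were recovered for 100% of values within a tolerance of 0.01, and 0 recovered reads differed over 48 table pairs that share a library; in 2 library columns the size factor was too near 1 and reads came from other tables.

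Reads were put on 1 median-ratio scale over the 24 libraries and tested as log2(normalized count + 1) with limma 3.58.1 (intensity trend, 2-sided, Benjamini-Hochberg over all genes listed, called at an adjusted p under 0.05). Each of 12 pairs of groups was fitted alone and 6 interactions over 12 libraries. Fold changes on this scale understate changes of genes with few reads. The script was tested on simulated data. Alternatives were edgeR 4.0.16, DESeq2 1.42.0, TMM scaling, a pseudocount of 4, a mean of at least 10, 1 fit over 24 libraries, the deposited values, a replicate block and omission of libraries. The fit over 24 libraries tested only the 14474 genes with reads in all 24, without Ccnb1. Its shares of all genes are given over the genes listed for each comparison. Mates of a group differed beyond counting error, so each library counted once. The labels call the mice biological replicates, and p-values measure the spread between these mice alone.

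Members, lists and named genes were chosen with earlier results of these data known. All 42 members are described, with the library values of the groups compared for those called in any comparison (12 genes) and for Cdkn1a, Cdkn1b, Ccne2, Ccnd1, Rrm2, Mcm5, Mki67 and Top2a; list genes were named where called, up to 4 per list and comparison by lowest p. A called list gene is not reported here. Other members named with values were chosen after these were seen.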

Additional observations from a re-analysis of the deposited data

Results flagged for a closer look

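The diet effect on Mcm6 at CT15 differed between the genotypes by 2.85 ± 0.33 on the log2(normalized count + 1) scale (KO minus WT, limma interaction over 12 libraries, adjusted p = 0.032). It was 2.14 ± 0.28 in KO livers and -0.72 ± 0.16 in WT livers. By limma 1 of 41 members was called for this difference (0.102% of all genes), by edgeR 1 (0.00679%) and by DESeq2 16 (2.02%). The limma call was kept in 4 of 12 fits that left out a library. It was lost with the replicate number as a block (adjusted p = 0.0695). It was also lost without both acinar-rich libraries at CT15 (adjusted p = 0.192), a fit with fewer mice.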

How the results depend on the processing

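The pseudocount of 4, the filter at a mean of 10 and TMM scaling left the 18 counts of called members within 1.5 times. The deposited values did so for the 10 counts they could give. Over the settings that leave out no single library 119 of 148 counts did so. Most of the 18 counts were 0 in the main fit, and a count that stayed at 0 was taken as within 1.5 times. For the called genes there were 280 values over all settings, with the fits that left out a single library among them. Of these 185 stayed past the threshold, 95 fell short of it and 0 changed sign. A single fit over 24 libraries, which called 0.163% to 8.22% of all genes in these comparisons, gave 1 for time in WT Control, 2 in KO Control, 5 in KO LeuD; for diet 1 in WT CT03, 6 in KO CT03 and 17 in KO CT15; for genotype 1 at LeuD CT03 and 9 at LeuD CT15; and 2 for diet by genotype at CT15. DESeq2, which called 0.475% to 7.05% of all genes in these, gave 4, 3 and 6 for time in WT Control, KO Control and KO LeuD; 4, 8 and 14 for diet in WT CT15, KO CT03 and KO CT15; 4 and 19 for genotype at LeuD CT03 and CT15; 1 each for time by diet in WT and time by genotype on LeuD; and 2 and 16 for diet by genotype at CT03 and CT15. The edgeR test gave 3 for genotype at LeuD CT15, beside 1.51% of all genes. Some fits left out the acinar-rich libraries of the groups compared and so had fewer mice. Their counts were 0 for time in KO LeuD, genotype at LeuD CT15 and diet by genotype at CT15. Calls over all genes in these fits are not given here.

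With the replicate number as a block the counts were 0 for time in WT Control, 3 in WT LeuD, 1 for genotype at LeuD CT15 and 0 for diet by genotype at CT15. Calls over all genes with the block are not given here, so these counts do not set the members apart. Deviations of same-numbered libraries correlated at -0.374 to 0.383, and in 0 of 12 comparisons was every pair over 0.1, so the numbers were not taken as pairs.

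Leaving out each library in turn gave 0 to 2 for time in WT Control, 2 to 5 in WT LeuD, 0 in KO Control and 1 to 3 in KO LeuD. Of all genes, these fits called 4 to 143, 561 to 1178, 0 to 5 and 33 to 605 in that order. For diet such fits gave 1 to 3 in WT CT03, 0 to 2 in WT CT15, 0 to 12 in KO CT03 and 0 to 3 in KO CT15. Calls over all genes were 75 to 442, 0 to 130, 0 to 1230 and 0 to 212 there. For genotype they gave 0 to 14 members at LeuD CT03 (3 to 1950 of all genes) and 0 to 9 at LeuD CT15 (27 to 362). On Control they gave 0 members, beside 1 to 4 of all genes at CT03 and 3 to 9 at CT15. For interactions they gave 0 to 1 for time by diet in WT, 0 to 10 for diet by genotype at CT03 and 0 to 4 at CT15. The calls among all genes were 0 to 7, 0 to 1050 and 0 to 18. The cause of these differences was not tested. For diet in KO livers at CT15 the SE of the members ran from 0.17 (Ccng1) to 1.18 (Cdkn1a), with a median of 0.32.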
